A study of Neogale vison with 6 samples.

Results

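The genes examined were DUSP1, DUSP4, DUSP5, DUSP6, DUSP10, SPRY1, SPRY2, SPRY4, SPRED1 and SPRED2, feedback inhibitors of MAP kinase signaling that are often read as transcriptional reporters of the kinase ERK. They were looked up by symbol among the 24526 genes of the count table for the mink cell line Mv1Lu. Of the 10 genes, 6 were found by symbol and 4 symbols were absent. The absent symbols were DUSP10, SPRY1, SPRY2 and SPRED2, whose rows carry the symbols DUS10, SPY1, SPY2 and SPRE2 and were recognized by their gene descriptions. The values of these 4 genes are given beside those of the others.

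Mv1Lu is an epithelial line from mink lung. One group was left untreated (control, 3 libraries), and the other was subjected to cholesterol depletion (CD, 3 libraries) for 16 h. CD combined lovastatin, a statin that blocks HMG-CoA reductase, with mevalonate, the product of that enzyme. Each was present at 50 μM, in medium containing 10% lipoprotein-deficient serum (LPDS), so that CD differs from control in statin, mevalonate and serum together. The labels do not say whether the replicates were separate cultures, so the spread between libraries may be partly technical.

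ERK, JNK and p38 are MAP kinases that are switched on by phosphorylation of a threonine and a tyrosine. Dual specificity phosphatases (DUSPs) remove both phosphates, and many DUSP genes are transcribed in response to the kinases that their products switch off. Sprouty (SPRY) proteins restrain signaling between receptor tyrosine kinases and RAF, and SPRED proteins, which carry a Sprouty domain and an EVH1 domain, bring the Ras inactivator neurofibromin to the membrane. Phosphorylated ERK was not measured in these libraries, and the values below are mRNA levels. Because RNA was taken from whole cultures, a change in the share of cells that express a gene and a change in RNA per cell cannot be told apart.

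The libraries held between 13473820 and 18633764 reads counted on genes. The share of reads not counted on a gene lay between 29.3% and 47.2% in the control and between 31.1% and 41.4% in the CD libraries. CD libraries differed more from each other than control libraries did, with a biological coefficient of variation of 0.213 against 0.0852, and CD replicates 1 and 3 lay farthest apart. Of 8 genes of the sterol response that were tested, 7 were higher in CD, led by HMGCS1, the HMG-CoA synthase (log2 fold change 3.43, FDR 4.17e-07, edgeR). The epithelial label was checked with marker genes, of which KRT8 and KRT18 were not found by symbol or description. KRT19 averaged 936 ± 66.9 CPM in control and fell to 458 ± 77.1 CPM after CD (SD, n = 3 each; FDR 2.74e-04, edgeR). CLDN4 rose from 0.603 ± 0.231 to 7.03 ± 1.11 CPM (FDR 9.61e-06, edgeR). With 7, 12 and 8 reads in control and 95, 131 and 100 in CD, CLDN4 had enough reads to be tested only through the CD libraries. CDH1 and EPCAM stayed under 0.5 CPM in both groups on average. The surfactant genes SFTPB and SFTPC had no reads in any library, and the summed level of 7 lung epithelial markers lay between 1.65 and 2.44 CPM in control and between 0.860 and 1.17 CPM in CD. The summed level of 7 mesenchymal markers ranged from 4266 to 4538 CPM in control and from 3922 to 4969 CPM in CD. This sum includes VIM, which averaged 4070 ± 119 CPM in control and 4152 ± 569 CPM in CD (SD, n = 3 each). VIM was not called, whereas 4 of the 6 tested mesenchymal markers were lower in CD. These were COL3A1 (log2 fold change -1.72), PDGFRB (-1.08), COL1A1 (-0.93) and COL1A2 (-0.37). Of 4 endothelial and immune markers, PECAM1, CDH5 and PTPRC were at 0 in every control library, and in CD PECAM1 had 4, 5 and 2 reads and the other pair 1 read each. CD68 rose from 5.45 ± 0.273 to 19.7 ± 2.75 CPM (log2 fold change 1.85, FDR 2.49e-05, edgeR). The part of these markers in the results below was not tested.

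Levels are TMM-normalized CPM, and CD was compared with control by the quasi-likelihood test of edgeR. A gene was called at a false discovery rate (FDR) under 0.05 over all 12148 genes with enough reads to be tested. Of the 10 feedback inhibitors, 8 were tested. DUSP4, DUSP1, SPRY2 and DUSP5 were higher in CD, and SPRED1, SPRY1, DUSP6 and SPRED2 were not called. None of the 8 was called lower in edgeR, DESeq2 or limma-voom, and none had a negative log2 fold change in edgeR. By this rule 47.7% of all genes tested were called, 24.8% higher and 22.9% lower. All 3 CD libraries lay above all 3 control libraries for 4 of the 8 genes, the called ones, and below them for none. Over all genes tested the groups did not overlap for 58%, with CD above for 29.5% and below for 28.6%. The median log2 fold change of the 8 genes was 0.47, beside 0.06 for all genes tested. The number of higher genes depended on the libraries, since only DUSP1 and DUSP4 were called without control replicate 2 or without CD replicate 2. These were also the only genes called at an FDR under 0.01. Without CD replicate 3, 5 genes were called.

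**Figure D1:**
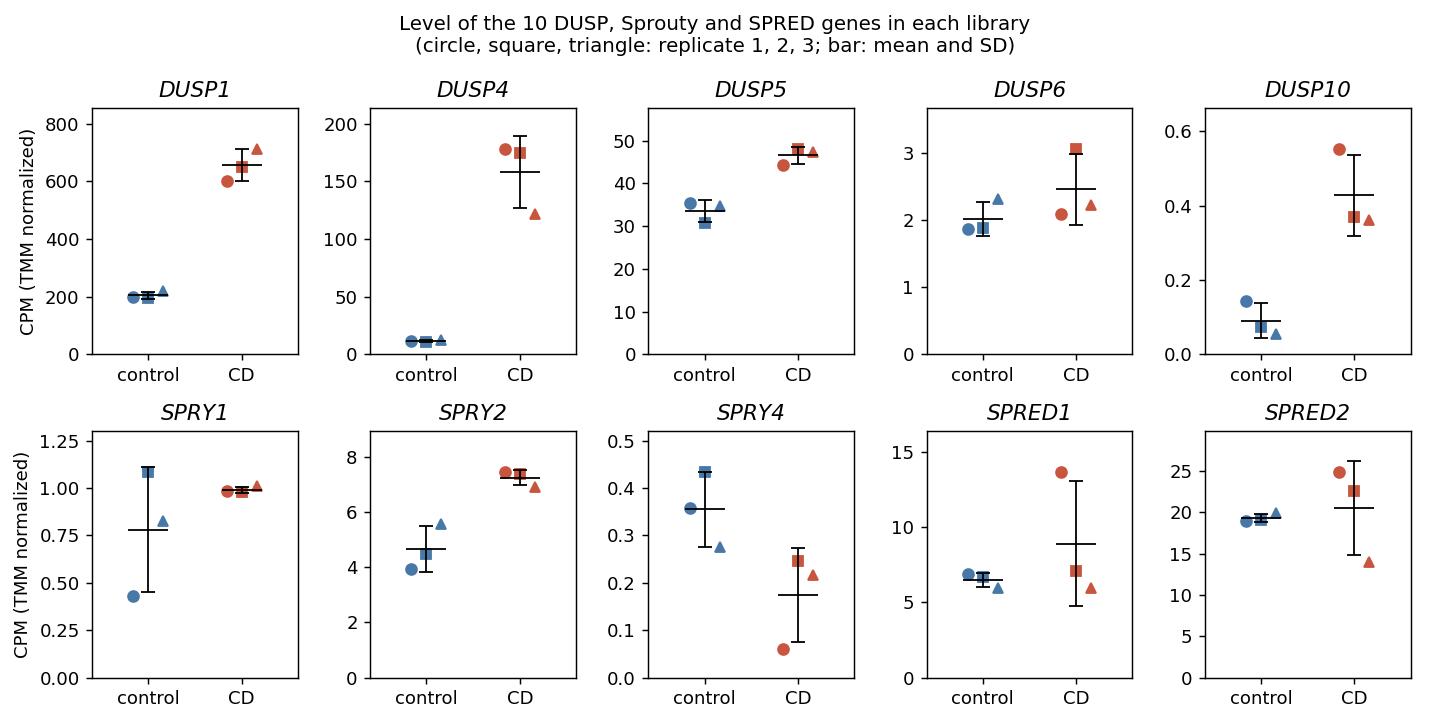
Level of each of the 10 genes in CPM after TMM normalization (vertical axes from 0, scaled for each gene) in the 3 control (blue) and 3 CD (red) libraries, with circles, squares and triangles for replicates 1, 2 and 3 and bars for the mean ± SD. DUSP1, DUSP4, DUSP5, DUSP10 and SPRY2 were higher in all 3 CD libraries than in all 3 control libraries, SPRY4 was lower in all 3 but had at most 6 reads in a library, and the groups overlapped for the other 4 genes.

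DUSP4 (ENSNVIG00000006667), a nuclear phosphatase of ERK and JNK, showed the largest change of the 8 tested genes. Its level was 11.2, 10.8 and 12.2 CPM in control replicates 1, 2 and 3 and 178, 174 and 122 CPM in CD replicates 1, 2 and 3. All CD libraries thus stood far above the controls, with CD replicate 3 the lowest of them. The mean rose from 11.4 ± 0.694 to 158 ± 31.5 CPM (SD, n = 3 each), that is by 3.79 on the log2 scale (standard error 0.18, FDR 3.46e-07, edgeR). This corresponds to 13.9-fold, with a 95% confidence interval of 10.6 to 18.2. Of all genes tested, 67 had a log2 fold change at least as high, DUSP4 included. With single libraries left out, it stayed between 3.68 and 3.91.

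DUSP1 (ENSNVIG00000022051) encodes the founding member of the family, a nuclear phosphatase that acts on p38, JNK and ERK and is itself an immediate early gene. It was at 199, 194 and 219 CPM in the control and at 602, 651 and 713 CPM in the CD libraries. The groups were well separated and the spread within each was small. The mean rose from 204 ± 13.2 to 655 ± 55.7 CPM (SD, n = 3 each), a rise of 1.68 on the log2 scale (standard error 0.12, FDR 3.52e-06, edgeR) and 3.21-fold, with a 95% confidence interval of 2.67 to 3.86. Both DUSP1 and DUSP4 were called in each of 14 alternative settings.

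DUSP5 (ENSNVIG00000008031), a nuclear phosphatase selective for ERK, was at 35.3, 30.7 and 34.8 CPM in control and at 44.4, 48.2 and 47.3 CPM in CD. Here too the groups did not overlap, but the difference was small. The log2 fold change was 0.47 (standard error 0.12, FDR 0.0101, edgeR), or 1.39-fold (95% confidence interval 1.15 to 1.68). Without control replicate 2 or CD replicate 2, DUSP5 was not called, with an FDR of 0.0562 and 0.0536 in edgeR.

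DUSP6 (ENSNVIG00000000281), the cytoplasmic counterpart that is also selective for ERK, had few reads, with 26, 26 and 42 in control replicates 1, 2 and 3 against 34, 50 and 31 in those of CD. This equals 1.86, 1.88 and 2.31 CPM in control and 2.09, 3.07 and 2.23 CPM in CD. The groups overlapped, and CD replicate 2 alone stood above all control libraries. DUSP6 was not called (log2 fold change 0.28, standard error 0.25, FDR 0.372, edgeR), and the 95% confidence interval of the fold change ran from 0.831 to 1.78. A change such as that of DUSP1 lies outside this interval, whereas one like that of DUSP5 lies inside it. Without CD replicate 2 the log2 fold change of DUSP6 was 0.060.

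DUSP10 (ENSNVIG00000017616), which prefers JNK and p38 to ERK, had too few reads to pass the filter, namely 2, 1 and 1 in control and 9, 6 and 5 in CD replicates 1, 2 and 3. Every CD library held more reads than any control library. In sum, 4 reads stood against 20, a ratio of 4.95 after scaling for depth. The exact 95% interval (Clopper-Pearson), which covers counting error only, ran from 1.66 to 19.9. Without the filter, DUSP10 was called higher by edgeR (FDR 0.0168), but it was not called by DESeq2 (FDR 0.103).

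Since reads of different genes in one library share its depth and scaling, the ratio between them does not depend on the normalization. For each read of DUSP1 there were 0.0561, 0.0560 and 0.0556 reads of DUSP4 in the control libraries and 0.296, 0.268 and 0.171 in the CD libraries. The ratio of DUSP4 to DUSP6 went from 5.68 ± 0.378 to 65.6 ± 17.2 (SD, n = 3 each). That of DUSP5 to DUSP1 was lower in CD, at 0.0714 ± 0.00432 against 0.165 ± 0.0106 in control. For each of these 3 ratios the groups did not overlap (two-sided exact permutation test, p = 0.1, the smallest that 3 libraries against 3 allow, so that this design cannot reach 0.05). The confidence intervals of the log2 fold changes of DUSP4, DUSP1 and DUSP5 did not overlap each other.

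**Figure D2:**
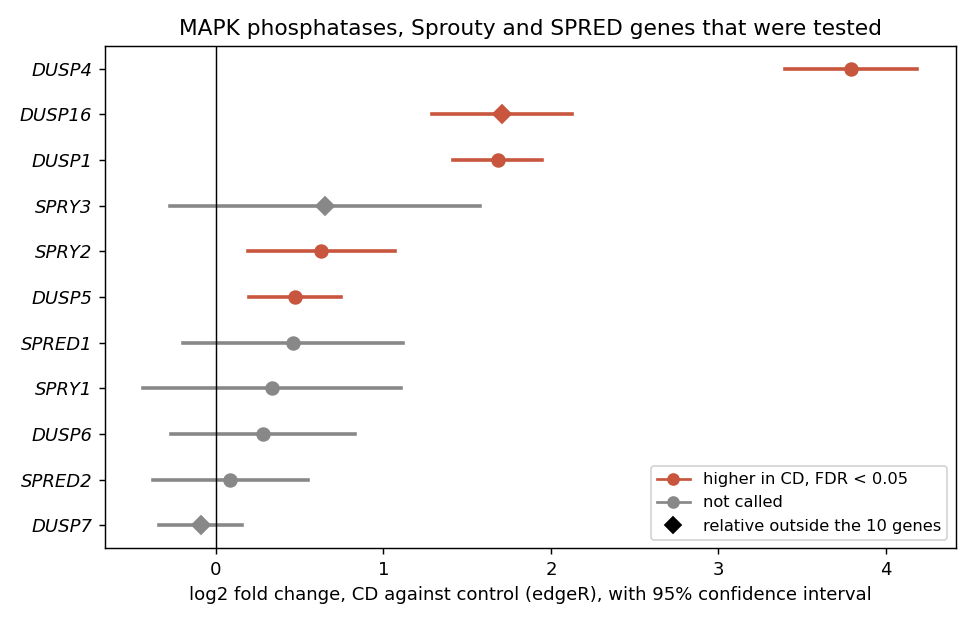
Log2 fold change of CD against control (horizontal axis) with its 95% confidence interval, from edgeR, for the 8 feedback inhibitors (circles) and the 3 relatives (diamonds) that had enough reads to be tested. Red marks genes higher in CD at an FDR under 0.05, grey those not called. DUSP4 stands alone at 3.79, DUSP16 and DUSP1 lie at 1.71 and 1.68, and the intervals of SPRED1, SPRY1, DUSP6, SPRED2, SPRY3 and DUSP7 include 0.

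Among the Sprouty genes, which inhibit signaling from receptor tyrosine kinases to ERK, only SPRY2 (ENSNVIG00000011622) was called. Its level was 3.94, 4.48 and 5.56 CPM in the control and 7.44, 7.36 and 6.92 CPM in the CD libraries. The CD libraries lay close together and above all controls, among which control replicate 3 was the highest. The log2 fold change was 0.63 (standard error 0.20, FDR 0.0239, edgeR), or 1.55-fold (95% confidence interval 1.14 to 2.10). SPRY2 was not called without control replicate 1, control replicate 2 or CD replicate 2 (FDR 0.120, 0.0845 and 0.0710, edgeR).

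SPRY1 (ENSNVIG00000009344) had 6, 15 and 15 reads in control and 16, 16 and 14 in CD, and the groups overlapped. Its log2 fold change of 0.34 had a 95% confidence interval of -0.43 to 1.11 (FDR 0.446, edgeR), which holds values below 0 as well as the change of SPRY2, so that no difference was detectable at this depth. It was 0.064 without control replicate 1 and 0.61 without control replicate 2. SPRY4 (ENSNVIG00000021156), a frequently used reporter of ERK output in other cells, was below the filter, with 5, 6 and 5 reads in control against 1, 4 and 3 in CD. Each CD library held fewer reads than each control library, 8 against 16 in sum. The ratio of CD to control was 0.495, and its interval of the same kind, 0.183 to 1.22, included 1. SPRY4 was not called without the filter (FDR 0.275, edgeR) or by DESeq2 (FDR 0.445).

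Among the 8 tested genes, the SPRED genes showed the widest spread among CD libraries. SPRED1 (ENSNVIG00000015982) was at 6.88, 6.65 and 5.95 CPM in the control and at 13.6, 7.06 and 5.98 CPM in the CD libraries. Only CD replicate 1 stood clearly apart from the controls, and CD replicate 3 lay within their range. The coefficient of variation of SPRED1 was 7.44% in control and 46.7% in CD. SPRED1 was not called (log2 fold change 0.46, standard error 0.29, FDR 0.223, edgeR). Its value rested on single libraries, since it was 0.022 without CD replicate 1 but 0.64 and called without CD replicate 3 (FDR 0.0115, edgeR). SPRED2 (ENSNVIG00000002729) went from 18.99, 19.08 and 19.95 CPM in control to 24.89, 22.58 and 14.05 CPM in CD, with CD replicates 1 and 2 above and CD replicate 3 below all controls. Its log2 fold change was 0.09 (95% confidence interval -0.37 to 0.55, FDR 0.754, edgeR) and turned to -0.065 and -0.022 without CD replicate 1 or 2. DUSP4, SPRY2, SPRED1 and SPRED2 were all highest in CD replicate 1 and lowest in CD replicate 3 among the CD libraries, whereas DUSP1 had the reverse order.

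**Figure D3:**
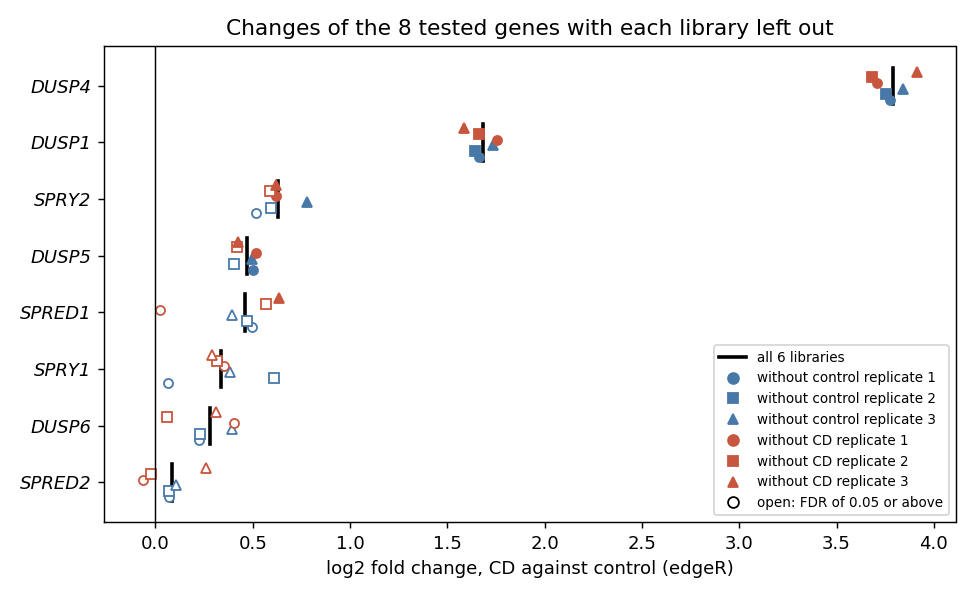
Log2 fold change of CD against control (horizontal axis, edgeR) of the 8 tested genes with all 6 libraries (black bar) and with each control (blue) or CD (red) library left out. Filled symbols mark an FDR under 0.05 and open symbols one of 0.05 or above. DUSP4 and DUSP1 keep their place, SPRY2 and DUSP5 lose the call when certain libraries are left out, and SPRED1 moves between 0.022 and 0.64.

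By summed reads, the 5 Sprouty and SPRED genes together were at 30.6, 31.7 and 32.6 CPM in control and at 47.0, 38.2 and 28.2 CPM in CD. For this sum, CD replicates 1 and 2 lay above and CD replicate 3 below all control libraries, as for SPRED2 alone. SPRED2 gave 265 of 427, 264 of 439 and 362 of 591 summed reads in control replicates 1, 2 and 3. In CD it gave 405 of 765, 368 of 623 and 195 of 391.

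The remaining MAP kinase phosphatases and Sprouty relatives comprised 7 genes, of which DUSP8 was not found by symbol or description and 3 were tested. DUSP16, which acts on JNK and p38, was the only one of these 3 called, beside 47.7% of all genes tested. It was at 20.6, 22.8 and 25.7 CPM in the control and at 95.3, 72.8 and 58.1 CPM in the CD libraries, well apart (log2 fold change 1.71, standard error 0.19, FDR 5.97e-05, edgeR), or 3.27-fold. DUSP7, an ERK-selective cytoplasmic phosphatase like DUSP6, was at 222, 203 and 228 CPM in control and at 185, 212 and 215 CPM in CD. Its log2 fold change was -0.09 with a 95% confidence interval of -0.34 to 0.16 (FDR 0.528, edgeR), which bounds any change more tightly than for DUSP6. The ratio of DUSP16 to DUSP7 reads went from 0.106 ± 0.0115 to 0.375 ± 0.125 (SD, n = 3 each). SPRY3 was not called (log2 fold change 0.65, FDR 0.219, edgeR). Its log2 fold change, which is also the median of the 3 tested relatives, was 0.35 without CD replicate 1, and it was 0.91 and called without CD replicate 3 (FDR 0.0372, edgeR). DUSP2, the phosphatase best known from lymphocytes, had 8 reads in CD and none in control, SPRED3 had none in CD and 2 in control, and DUSP9 had none in any library. Without the filter on low counts, DUSP2 was called higher (FDR 0.0324, edgeR), and DESeq2 gave no FDR for it.

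Atypical DUSPs lack the MAP kinase-binding domain of the phosphatases above, and most act on other substrates. Of 14 listed, 11 were found and 6 tested, of which 3 were higher and none lower, beside 24.8% and 22.9% of all genes tested. DUSP3 rose 2.01-fold, DUSP22 1.77-fold and DUSP14 1.73-fold, with an FDR of 1.89e-04, 0.0114 and 6.68e-04 in edgeR. None of the 6 had a negative log2 fold change in edgeR, and DESeq2 and limma-voom called none lower. DUSP15, named here after its values were seen, was below the filter, with 10, 5 and 14 reads in control and 1, 1 and 4 in CD, fewer in every CD library than in any control library. It was called lower without the filter (log2 fold change -2.21, FDR 0.00718, edgeR) and without control replicate 2, CD replicate 1 or CD replicate 3 (FDR 0.0132, 0.0408 and 2.06e-04, edgeR), but not by DESeq2 (FDR 0.0553). The 6 log2 fold changes had a median of 0.81. This median moved with the genes that entered it, to 0.49, 0.47 and 0.39 for the 8 genes tested without control replicate 2, CD replicate 2 or CD replicate 3, and to 0.17 for the 11 genes tested without the filter. DUSP22 was not called without control replicate 3 (FDR 0.0578, edgeR) or by DESeq2 (FDR 0.0522).

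Of 25 genes of the cascade from receptors to ERK, 21 were found and all of these were tested. In CD, 8 of these were higher, 1 was lower and 12 were not called, beside 24.8% higher and 22.9% lower among all genes tested. Their log2 fold changes had a median of 0.32, which was 0.16 without CD replicate 1. The higher genes included SHOC2, a scaffold that promotes RAF activation, with a log2 fold change of 1.06, SOS1, a Ras exchange factor, with 0.96, and GAB1, a docking protein, with 0.84. SHOC2 was not called without control replicate 1 or 3 (FDR 0.0526 and 0.0736, edgeR). The lower gene was ARAF, a RAF kinase (log2 fold change -0.58, FDR 0.00177, edgeR). MAPK3 (ERK1), named here after its value was seen, had a log2 fold change of 0.80 (FDR 3.85e-04, edgeR).

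Genes that respond to ERK in many cells were examined as a list of 23, of which 19 were tested. In CD, 10 were higher, 3 lower and 6 not called, and the median log2 fold change was 0.56. Of all genes tested, 24.8% were higher and 22.9% lower. EGR3, an immediate early transcription factor, had the highest log2 fold change, 3.82 (standard error 0.47, FDR 1.22e-04, edgeR), but a low level, 0.309 ± 0.177 CPM in control and 4.64 ± 1.90 CPM in CD (SD, n = 3 each). With 2, 4 and 9 reads in control and 92, 95 and 34 in CD, it passed the filter only through the CD libraries. PHLDA1, PLAUR (the urokinase receptor) and FOSL2 (an AP-1 subunit) followed, with 1.78, 1.59 and 1.01. The lower genes were the ephrin receptors EPHA4 (-1.36) and EPHA2 (-0.73) and the immediate early gene IER2 (-0.50), which was not called without control replicate 1 (FDR 0.0602, edgeR). ETV4 and ETV5, transcription factors of the ETS family that are widely used beside DUSP6 and SPRY4 to read ERK, were named after their values were seen. Their log2 fold changes were -0.06 (95% confidence interval -0.34 to 0.22) and 0.19 (-0.24 to 0.62), and neither was called. ETV1, of the same family, had 0.62 (0.012 to 1.22) and was not called either (FDR 0.0859, edgeR). The list thus held genes that changed in both directions.

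Of 16 other negative regulators of receptors, Ras and ERK, 14 were tested. In CD 5 of them were higher and 2 lower, beside 24.8% and 22.9% of all genes tested. The median of the log2 fold changes was 0.37. Without CD replicate 1 this median was 0.085. PTPN5, a tyrosine phosphatase of ERK and p38, rose 5.86-fold from a low level (0.218 ± 0.0729 to 1.32 ± 0.0757 CPM, SD, n = 3 each; FDR 2.50e-04, edgeR). Its reads, 2, 4 and 4 in control and 20, 22 and 19 in CD, passed the filter only through the CD libraries. PEA15, which holds ERK in the cytoplasm, rose 1.82-fold (FDR 3.03e-04, edgeR). The Ras GTPase-activating protein gene RASA1 and the ubiquitin ligase gene CBLB had log2 fold changes of 0.64 and 0.68 (FDR 0.0160 and 0.0419, edgeR), and the groups of CBLB overlapped. LRIG3 and DAB2IP were lower, with log2 fold changes of -1.66 and -0.66. CBLB and DAB2IP were not called in 7 and 5 of 14 alternative settings, and RASA1 was not called without control replicate 1 or 3 (FDR 0.0640 and 0.0688, edgeR). The number of higher genes in the list fell to 2 without control replicate 1 or 3 and to 3 without control replicate 2 or CD replicate 1 or 2, and it was 7 without CD replicate 3. CBLB was called only without CD replicate 3 among the 6 fits that leave out a library, and DAB2IP only without CD replicate 2 or 3.

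JNK and p38 are the preferred substrates of DUSP1, DUSP10 and DUSP16. Of 25 genes of these pathways, 22 were tested. In CD 9 of them were higher and none lower, beside 24.8% and 22.9% of all genes tested. The median of the log2 fold changes was 0.48, or 0.26 without CD replicate 1. Among the 9 was MAPK13, named here after its values were seen. With 4, 7 and 11 reads in control and 14, 24 and 11 in CD, it passed the filter only through the CD libraries. None of the 22 was lower at an unadjusted p under 0.05 in edgeR, and DESeq2 and limma-voom called none lower. The largest changes belonged to ATF3, a transcription factor induced by stress, and JUN, an AP-1 subunit that JNK phosphorylates. ATF3 rose from 46.3 ± 2.56 to 585 ± 29.7 CPM and JUN from 37.4 ± 2.50 to 396 ± 47.3 CPM (SD, n = 3 each), with log2 fold changes of 3.66 and 3.41 (FDR 7.93e-08 and 1.56e-07, edgeR). They were followed by MAPK9 (JNK2), with 1.79, and GADD45A, an activator of the p38 and JNK cascades, with 1.41. Without CD replicate 3, 14 genes of this list were higher, and without CD replicate 2, 1 was lower.

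**Figure D4:**
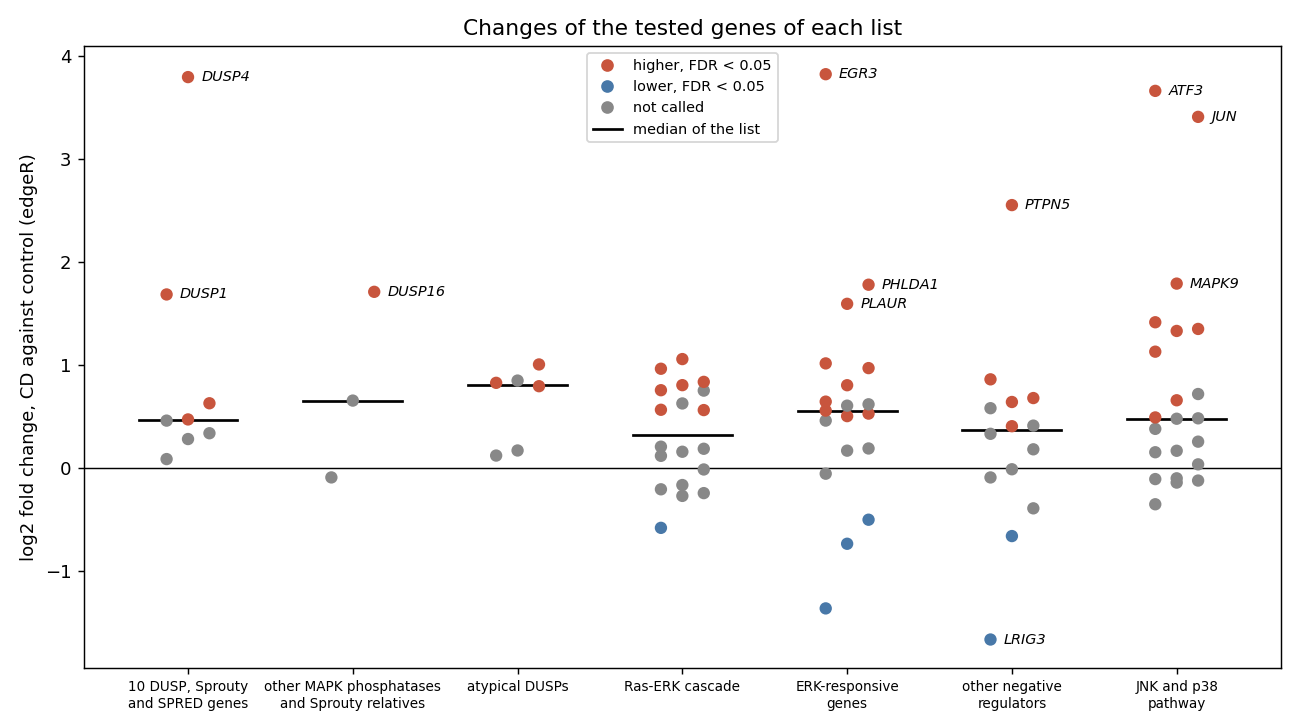
Log2 fold change of CD against control (vertical axis, edgeR) of the tested genes of the 7 gene lists, except 2 of the Ras-ERK cascade that are not shown, with red for genes higher and blue for genes lower at an FDR under 0.05, grey for genes not called and a bar for the median of each whole list. Genes with a change beyond 1.5 in either direction carry their names. The medians lie between 0.32 and 0.81, and lower genes occur in the Ras-ERK cascade, the ERK-responsive genes and the other negative regulators.

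The profiles of DUSP4 and DUSP5, the called genes with the highest and the lowest log2 fold change of the 10, were compared with those of all other tested genes that have a symbol. Likeness was the root mean square difference of log2 CPM (edgeR, prior count 2), relative to the control mean, over the 6 libraries. Closest to DUSP4 were TNFAIP3 (0.14), DAO (0.16) and LRATD1 (0.18). DAO had no reads in control, so its place depends on the prior count added before the logarithm. Closest to DUSP5 were ADCK2 (0.031), ZYX (0.039) and SPATS2L (0.044). These values are descriptions of 6 libraries that fall into 2 groups.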

How the data were processed

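RNA-seq libraries of Mv1Lu cells, 3 control and 3 CD, were grouped and numbered by the titles of the sample labels. The authors isolated poly(A) mRNA, made Nextera XT libraries, trimmed the reads with fastp 0.20.1, aligned them to the mink genome with STAR 2.7.2a and compared groups with DESeq2 1.30.1 in R 4.0.3 (versions from the submitters' processing notes). The values used are raw read counts per gene, deposited by the authors without normalization. The counting program and its use of strand are not given in the sources used here, so overlapping and antisense genes are uncertain. Normalized values deposited per library were not used here, because by gene identifier they have no relation to the counts. The 4 rows without a gene were left out of library sizes and tests (29.3% to 47.2% of reads).

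These counts were tested by edgeR 4.0.16 under R 4.3.3, with filterByExpr (minimum count 10, minimum total 15), TMM scaling, glmQLFit (robust) and glmQLFTest, with Benjamini-Hochberg adjustment over all genes tested. Standard errors were computed as |log2 fold change|/√F, and the 95% confidence interval uses the total degrees of freedom of edgeR, residual and prior together. Intervals of read ratios cover counting error only. Exact permutation tests used log2(CPM + 1) or log2 ratios. The scripts were tested on simulated data. No pair of replicates differed by as little as sampling noise.

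The 10 genes and the gene lists were chosen with earlier results of these data known. Genes absent by symbol were matched by description, a choice made after seeing the table. Named were the 10 genes, in each other list the 4 highest and 4 lowest called genes, and the genes closest in profile to the highest and lowest called gene of the 10. A few values that this rule would name are not reported here. Alternatives were DESeq2 1.42.0, limma-voom (limma 3.58.1), other scalings, other filters, a replicate block, single libraries left out, an FDR of 0.01, and matching by symbol only. No gene lengths, coordinates or sequences of the authors' assembly were used here, so levels of different genes are not compared.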

Additional observations from a re-analysis of the deposited data

How the results depend on the processing

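Of the 10 feedback inhibitors, 4 were higher and none lower. Both numbers were the same with DESeq2, limma-voom, 3 other scalings in edgeR, a minimum of 50 counts in 3 libraries and the replicate block. They were 5 and 0 without a filter on low counts, 3 and 0 for genes matched by symbol only (an alternative chosen after seeing the data), and 2 and 0 at an FDR under 0.01. With single libraries left out, the number of higher genes lay between 2 and 5. The log2 fold changes then ranged from 0.52 to 0.78 for SPRY2, from 0.41 to 0.52 for DUSP5, from 0.060 to 0.40 for DUSP6, from 0.064 to 0.61 for SPRY1, from 0.022 to 0.64 for SPRED1 and from -0.065 to 0.26 for SPRED2, which reversed to -0.065 and -0.022 without CD replicate 1 or 2. The cause was not tested. The other MAP kinase phosphatases and Sprouty relatives had 2 higher genes without the filter and 1 to 2 with libraries left out, against 1. For atypical DUSPs, 1 was lower without the filter and 0 to 1 with libraries left out. Among other negative regulators, 1 was lower with total counts and with a minimum of 50 counts, against 2, and with libraries left out 2 to 7 were higher, against 5, and 1 to 2 lower. In the JNK and p38 list, 8 to 14 were higher and 0 to 1 lower with libraries left out. The numbers of called genes of the Ras-ERK cascade, the ERK-responsive genes and the sterol response stayed within 1.5 times. Without CD replicate 1, the median log2 fold change fell to 0.16 for the Ras-ERK cascade, 0.085 for the other negative regulators and 0.26 for the JNK and p38 list. For atypical DUSPs it was 0.46 with DESeq2, 0.49 with a minimum of 50 counts and 0.17 without the filter. Deviations from the group means correlated at -0.024, -0.33 and -0.18 between the control and CD libraries of replicates 1, 2 and 3. Libraries of unlike number were not compared, so these values do not settle whether the replicate number pairs the samples. With the replicate block, 2772 genes were higher and 2636 lower, against 3016 and 2784 without it. Read numbers limit DUSP6, DUSP10, SPRY1 and SPRY4.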
